A study of Cricetulus griseus with 6 samples.

Results

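The genes examined here encode the receptor chains, Janus kinases, STAT protein and interferon regulatory factors (IRFs) through which cells detect and pass on type I interferon. They were chosen by gene symbol, and 8 of the 9 symbols of the rule, *Ifnar1*, *Jak1*, *Tyk2*, *Stat2*, *Irf1*, *Irf3*, *Irf7* and *Irf9*, stood on 1 row each among the 27873 rows of the expression files. The symbol *Ifnar2*, for the other chain of the type I interferon receptor, matched no row and was not analysed here. All 8 genes passed the filter on low values described below.

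Expression was measured by RNA-Seq in CHO-T cells, which are Chinese hamster ovary (CHO) cells that stably express mouse *Cdh13*, the gene of T-cadherin, from a retrovirus. The cells were transfected for 48 h with negative control siRNA (n = 3 libraries) or with *Xbp1* siRNA (n = 3 libraries), and both conditions carry the transgene. A single siRNA sequence against *Xbp1* is described in the study's methods. The labels do not say whether the libraries of a condition came from separate cultures, so the p-values measure only the spread between these libraries.

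Type I interferons bind a receptor of 2 chains, IFNAR1 and IFNAR2, to which the kinases TYK2 and JAK1 are attached. The kinases phosphorylate STAT proteins, among them STAT2, which together with IRF9 belongs to the complex ISGF3, and this complex binds interferon-stimulated genes. IRF3 and IRF7 act upstream, switching on interferon genes after nucleic acid sensors have been triggered, while IRF1 acts on many genes that respond to interferon-gamma. Most of these proteins are controlled by phosphorylation, and the values reported here are mRNA levels only.

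Values are in FPKM (read fragments scaled by exon length and by the mapped total of the library), so that levels can be compared between genes. Differences are log2 fold changes of *Xbp1* siRNA against control siRNA computed from log2(FPKM + 0.1), a scale on which changes of weakly expressed genes come out too small, with p-values from limma adjusted by the Benjamini-Hochberg method over the 14361 rows with a mean of at least 0.1 FPKM. A gene is said to have risen or fallen when its adjusted p was under 0.05, and to be called when its log2 fold change was also at least 1 in size. *Xbp1* itself lay between 26.0 and 28.4 FPKM in the control libraries and between 1.39 and 2.18 FPKM in the *Xbp1* siRNA libraries, a log2 fold change of −3.78 (limma, adjusted p = 5.61e-06). The deposited columns sum to between 646651 and 666267 FPKM with control siRNA and between 593487 and 600986 FPKM with *Xbp1* siRNA, whose mean sum was 91.1% of that of the controls. The median log2 fold change over all rows tested was 0.01 in the values as deposited, and 0.14 when the columns were rescaled to equal sums, an alternative chosen after seeing the data. Differences of the size of that shift depend on the scaling. Relative to control replicate 1, the depth read from the steps of low values lay between 94.0% and 116%. The summed level of all 4 marker lists is given as its range over the libraries. The 8 mesenchymal markers summed to 415 to 439 FPKM with control siRNA and 348 to 374 FPKM with *Xbp1* siRNA, with *Vim* going from a mean of 377 to 304 FPKM and *Fn1* from 13.1 to 23.3 FPKM, and with *Col1a1*, *Col1a2* and *Thy1* listed at 0. The 4 epithelial markers matched summed to 1.83 to 2.16 and 4.59 to 5.79 FPKM, nearly all of it *Epcam*, with *Krt18* and *Krt19* listed at 0. The 8 leukocyte markers summed to 5.18 to 6.31 and 7.05 to 8.86 FPKM, nearly all of it *Cd68*, with *Ptprc*, *Aif1* and *Cd3e* listed at 0. The 4 granulosa cell markers matched summed to 4.39 to 6.35 and 5.12 to 7.25 FPKM, from *Amh* and *Inha*, with *Fshr* and *Inhba* listed at 0. The part of these shifts in the results was not tested.

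Of the 8 genes, *Irf7* and *Stat2* rose after *Xbp1* silencing, *Irf3* fell, and 5 did not pass the test. Over all rows tested, 20.2% rose, 20.2% fell and 40.4% passed in either direction, so 3 of 8 is close to that background. None of the 8 was called, while 2.69% of all rows were called higher, 2.5% lower and 5.19% in either direction by limma; no log2 fold change of the 8 reached 1 in size, whatever its p. At an unadjusted p under 0.05 there were 4 genes, the fourth being *Tyk2*. At least 40.4% of all rows tested pass that looser cut, since every row past the adjusted p also passes it. The median log2 fold change of the 8 genes was 0.05, against 0.01 over all rows tested. With equal column sums 5 of the 8 genes rose (*Irf7*, *Stat2*, *Tyk2*, *Irf9* and *Jak1*) and none fell by limma, beside 31.7% of all rows higher and 13.0% lower, and the share of higher genes among those past the test went from 49.9% to 70.9%. The difference of *Irf7* was by far the largest, at 1.84-fold, and the other 7 lay between 0.888-fold and 1.24-fold of the control mean.

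**Figure D1:**
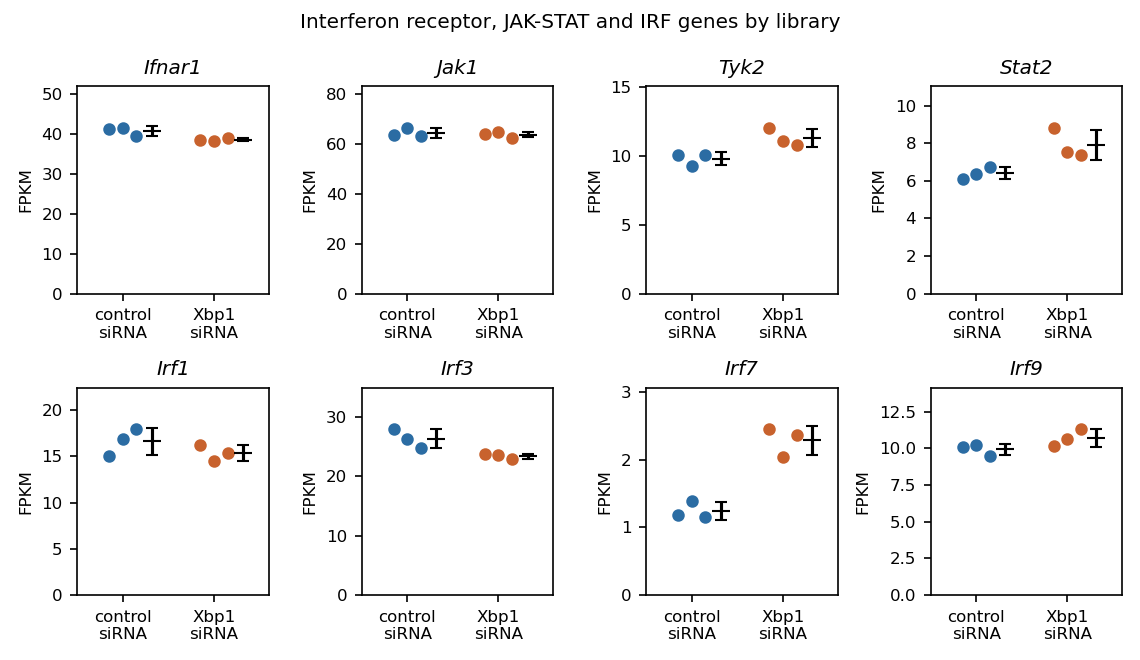
FPKM of the 8 genes in each library (points), with the mean and SD of the 3 libraries of each condition beside them (black); the axes start at 0 and differ between genes. The 3 *Xbp1* siRNA libraries of *Irf7* sit between 2.04 and 2.45 FPKM, above the control libraries at 1.15 to 1.39 FPKM, whereas the conditions overlap for *Jak1*, *Irf1* and *Irf9*.

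In control cells *Jak1* had the highest level, with 64.3 ± 1.94 FPKM (SD, n = 3), at or above 87.3% of the rows tested. It was followed by *Ifnar1* with 40.8 FPKM, *Irf3* with 26.3 FPKM, *Irf1* with 16.6 FPKM, *Irf9* with 9.92 FPKM, *Tyk2* with 9.78 FPKM and *Stat2* with 6.41 FPKM, and *Irf7* was lowest with 1.24 FPKM, at the 21.9th percentile. Of these neighbours in rank, the libraries overlapped between *Irf9* and *Tyk2*, and no other adjacent pair overlapped. With *Xbp1* siRNA the order was the same apart from *Tyk2* standing above *Irf9*, and those 2 genes again overlapped. All 8 genes were thus transcribed under both conditions.

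IFNAR1 is the receptor chain to which TYK2 is attached. *Ifnar1* had 41.3, 41.7 and 39.5 FPKM in control cells and 38.5, 38.4 and 39.1 FPKM after *Xbp1* silencing. All 3 *Xbp1* siRNA libraries lay below all 3 control libraries, but the gap was small. The mean with *Xbp1* siRNA was 94.8% of the control mean. The log2 fold change was −0.08, with a 95% interval of −0.17 to 0.02, and the adjusted p of 0.164 (limma) did not pass the test. With equal column sums the sign turned, to 0.06 (limma, adjusted p = 0.272). For a gene whose conditions do not overlap, exact permutation of the 6 libraries gives a two-sided p of 0.10, the smallest value that this design allows. Conditions did not overlap for 5 of the 8 genes, with 3 higher and 2 lower after *Xbp1* silencing, compared with 51.8% of all rows tested, 26.1% higher and 25.8% lower.

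The list of other receptor chains held 4 symbols, of which *Ifngr1*, *Ifngr2* and *Ifnlr1* were matched and tested, and 1 rose. *Ifngr1*, the ligand-binding chain of the interferon-gamma receptor, had 9.72, 10.2 and 11.6 FPKM with control siRNA and 14.3, 16.4 and 14.8 FPKM with *Xbp1* siRNA. These values rest on 171, 168 and 200 reads against 258, 284 and 302 reads, taking the common step of its FPKM values as 1 read. *Ifngr1* rose, with a log2 fold change of 0.53 (95% interval 0.32 to 0.74, adjusted p = 0.00259, limma). *Ifngr2*, the second chain of that receptor and the protein-coding neighbour of *Ifnar1* in the RefSeq gene table, was named after its values were seen. It had a log2 fold change of 0.15 and did not pass the test (limma, adjusted p = 0.0698). It passed after quantile normalization, with a log2 fold change of 0.18 (limma, adjusted p = 0.0464), and with equal column sums, with 0.29 (limma, adjusted p = 0.00598). The count of chains that rose, 1 of 3, was 2 in both settings and without the intensity trend. *Ifnlr1*, a chain of the interferon-lambda receptor, was near the limit of detection, with 7 to 10 reads in the control libraries and 12 to 21 reads with *Xbp1* siRNA.

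JAK1 is shared by many cytokine receptors, including those of all interferon types. *Jak1* had 63.4, 66.5 and 63.0 FPKM with control siRNA and 64.1, 64.6 and 62.5 FPKM with *Xbp1* siRNA, and the conditions overlapped. Its log2 fold change was −0.01 (limma, adjusted p = 0.811), and the 95% interval of −0.10 to 0.07 was the narrowest of the 8 genes. The sign of so small a value was not fixed. It was 0.05 after quantile normalization and, with equal column sums, 0.12 and past the test (limma, adjusted p = 0.0423). It was also above 0 without control replicate 2 (0.01) and without *Xbp1* siRNA replicate 3 (9.73e-04).

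TYK2 is the kinase bound to IFNAR1 and also serves the receptors of interleukin 12 and related cytokines. *Tyk2* had 10.1, 9.26 and 10.02 FPKM in control cells and 12.0, 11.1 and 10.8 FPKM after *Xbp1* silencing. All *Xbp1* siRNA libraries were above all control libraries. The log2 fold change of 0.21 (95% interval 0.03 to 0.38) had an adjusted p of 0.0584 (limma), which did not pass the test. With rows under a mean of 1 FPKM left out it passed (limma, adjusted p = 0.0433), and with equal column sums it passed with 0.34 (limma, adjusted p = 0.00826). A ratio of 2 genes of the same library does not depend on the column sum. The *Tyk2* level was 0.152 ± 0.0113 (SD, n = 3) of the *Jak1* level in control libraries and 0.177 ± 0.00922 (SD, n = 3) of it with *Xbp1* siRNA. For this ratio an exact two-sided permutation test gave p = 0.10, or 0.167 after Benjamini-Hochberg adjustment over the 5 ratios computed, of which 4 are reported.

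Both other Janus kinases rose. *Jak3*, which partners the common gamma chain of interleukin receptors and is best known from lymphocytes, had 3.47, 3.64 and 3.72 FPKM with control siRNA and 6.40, 6.08 and 6.17 FPKM with *Xbp1* siRNA. The groups were far apart relative to their spread, and the log2 fold change was 0.77 (limma, adjusted p = 4.01e-04). These values correspond to 434 reads over the control libraries and 811 reads over the *Xbp1* siRNA libraries. *Jak2*, the kinase of the IFNGR2 chain and of several hormone receptors, rose from 6.15 ± 0.286 to 7.56 ± 0.311 FPKM (mean ± SD, n = 3 each), with a log2 fold change of 0.29 (limma, adjusted p = 0.0211). Its adjusted p was above 0.05 without control replicate 1 (0.0521), control replicate 2 (0.0655), *Xbp1* siRNA replicate 1 (0.0628) or *Xbp1* siRNA replicate 3 (0.0748). Of the 4 Janus kinases, *Jak2* and *Jak3* thus passed the test and *Jak1* and *Tyk2* did not, while all 4 passed with equal column sums.

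**Figure D2:**
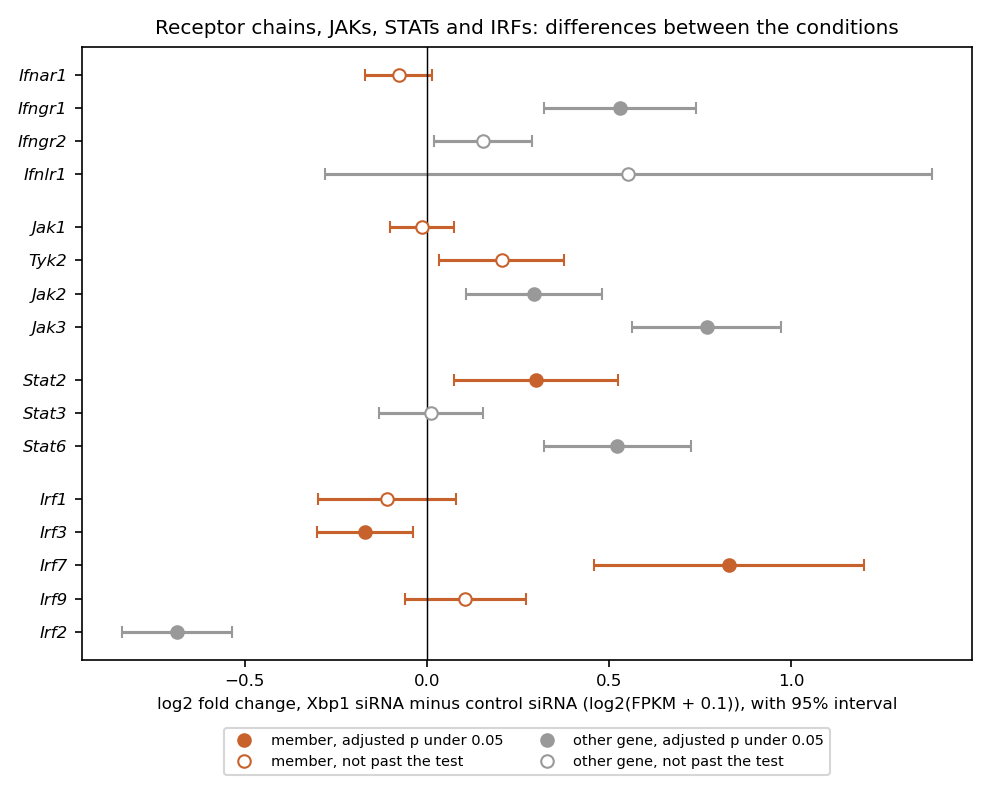
Log2 fold change with its 95% interval (limma) for receptor chains, Janus kinases, STATs and IRFs; orange marks the genes described here, grey other genes of the same families, and filled points those with an adjusted p under 0.05. *Irf7* at 0.83 and *Irf2* at −0.68 stand at the opposite ends of the IRFs, and *Jak1* at −0.01 lies on the zero line.

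STAT2 is the STAT protein specific to type I and lambda interferons, and is an obligate part of ISGF3. *Stat2* had 6.12, 6.35 and 6.75 FPKM with control siRNA and 8.85, 7.53 and 7.39 FPKM with *Xbp1* siRNA. All *Xbp1* siRNA libraries were above all control libraries, and *Xbp1* siRNA replicate 1 was the highest. *Stat2* rose by the test, with a log2 fold change of 0.30 (95% interval 0.08 to 0.52, adjusted p = 0.0409, limma). It did so only narrowly: without any 1 of the 6 libraries the adjusted p lay between 0.0529 and 0.118, and without *Xbp1* siRNA replicate 1 the log2 fold change was 0.22. With the replicate number as a block the adjusted p was 0.0759 (limma). It was also above 0.05 after quantile normalization (0.0640) and without a filter on low values (0.0553), whereas with equal column sums it was 0.0101, with a log2 fold change of 0.43.

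IRF9 is the DNA-binding partner of STAT2 in ISGF3. *Irf9* had 10.1, 10.2 and 9.48 FPKM with control siRNA and 10.1, 10.6 and 11.3 FPKM with *Xbp1* siRNA. Its conditions overlapped, with a log2 fold change of 0.11 (95% interval −0.06 to 0.27, adjusted p = 0.281, limma). With equal column sums *Irf9* passed the test, with a log2 fold change of 0.24 (limma, adjusted p = 0.0271).

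The ratio of *Stat2* to *Irf9* was 0.609, 0.620 and 0.712 with control siRNA and 0.874, 0.708 and 0.654 with *Xbp1* siRNA. The libraries of the 2 conditions overlapped, and the highest ratio was that of *Xbp1* siRNA replicate 1, in which *Stat2* was also highest. The mean ratio was 0.647 ± 0.0566 (SD, n = 3) in control cells and 0.745 ± 0.115 (SD, n = 3) after *Xbp1* silencing (p = 0.30, exact two-sided permutation test, 0.375 after adjustment over 5 ratios).

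Among the other STAT genes, *Stat6*, which carries the signal of interleukins 4 and 13, rose from 10.7 ± 1.13 to 15.4 ± 0.732 FPKM (mean ± SD, n = 3 each), with a log2 fold change of 0.52 (limma, adjusted p = 0.00240). In all, 3 of the 5 other JAKs and STATs tested rose and 0 fell. At an unadjusted p under 0.05, 0 fell as well. The median log2 fold change of these 5 genes was 0.29.

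IRF7 is needed for a strong output of type I interferon and is itself induced by interferon through ISGF3. *Irf7* had 1.19, 1.39 and 1.15 FPKM in control cells and 2.45, 2.04 and 2.36 FPKM after *Xbp1* silencing. The 2 ranges were well apart, and the lowest *Xbp1* siRNA library was above the highest control library. The mean rose from 1.24 ± 0.131 to 2.29 ± 0.216 FPKM (mean ± SD, n = 3 each). The log2 fold change was 0.83, with a 95% interval of 0.46 to 1.20 and an adjusted p of 0.00478 (limma). By size it ranked 1786 among the 14361 rows tested. With a pseudocount of 1 the log2 fold change was 0.55, since a larger pseudocount shrinks the changes of weakly expressed genes, and the adjusted p was 0.00374 (limma). With equal column sums it was 0.96. Across all 15 alternatives the adjusted p of *Irf7* lay between 0.00213 and 0.0222.

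The genes whose profile over the 6 libraries was most like that of *Irf7* were sought among 9372 named genes with a mean of at least 1 FPKM. Likeness was the root mean square difference between log2 values centred on each gene's mean, in which the step between the conditions has a large part. *Fads3*, a member of the fatty acid desaturase family, was closest with a distance of 0.0399, followed by *Mlf1* with 0.0431, *Strip2* with 0.0564, *Rad52*, a homologous recombination gene, with 0.0571 and *Eef2k*, the kinase of elongation factor 2, with 0.0629. The log2 fold changes of these 5 genes lay between 0.78 and 0.87. None of the 5 is on the interferon lists used here.

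IRF3 is the constitutive factor that first turns on interferon beta once it has been phosphorylated. *Irf3* had 27.9, 26.3 and 24.7 FPKM with control siRNA and 23.6, 23.5 and 22.8 FPKM with *Xbp1* siRNA. All *Xbp1* siRNA libraries were below all control libraries, which themselves spread more widely. *Irf3* fell, with a log2 fold change of −0.17 (95% interval −0.30 to −0.04, adjusted p = 0.0463, limma), to 88.8% of the control mean. The result stood at the edge of the threshold. When 1 library was left out, it passed without control replicate 3 (adjusted p = 0.0251) and not without any other library (adjusted p from 0.0861 to 0.130, limma). The adjusted p was 0.102 after quantile normalization, 0.0801 without the intensity trend and 0.0520 without a filter. With equal column sums the log2 fold change was −0.04 (limma, adjusted p = 0.626).

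In the RefSeq gene table *Irf3* overlaps 1 protein-coding gene, *Bcl2l12*, an apoptosis-related gene of the BCL2 family, and no other of the 8 genes overlaps a protein-coding gene. *Bcl2l12*, named after its values were seen, was more abundant than *Irf3* and fell from 144 ± 13.8 to 88.0 ± 3.16 FPKM (mean ± SD, n = 3 each), with a log2 fold change of −0.71 (limma, adjusted p = 1.69e-04). The library kit keeps the strand, but whether strand was used in counting is not given in the sources used here. How far the 2 genes share reads was not tested.

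The ratio of *Irf7* to *Irf3* was 0.0426, 0.0530 and 0.0465 with control siRNA and 0.104, 0.0868 and 0.103 with *Xbp1* siRNA. *Irf3* remained the more abundant of the pair in every library, and the ratio was higher in all 3 *Xbp1* siRNA libraries than in all control libraries. An exact two-sided permutation test gave p = 0.10, and 0.167 after adjustment over 5 ratios.

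IRF1 activates genes of antigen presentation and other targets of interferon-gamma, and IRF2 binds the same elements and often acts as its antagonist. *Irf1* had 15.02, 16.9 and 18.0 FPKM with control siRNA and 16.3, 14.5 and 15.4 FPKM with *Xbp1* siRNA, and the conditions overlapped. It was the only one of the 8 genes whose values could be expressed in whole reads, with 261, 276 and 306 reads against 290, 248 and 310 reads. The spread between libraries was 8.97% of the mean in control cells and 5.67% with *Xbp1* siRNA, where counting alone would give 5.98% and 5.97%. The log2 fold change of *Irf1* was −0.11 (95% interval −0.30 to 0.08, adjusted p = 0.333, limma), and 0.03 with equal column sums (limma, adjusted p = 0.837).

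*Irf2* was the only one of the other IRFs abundant enough to be tested, and it fell. It had 15.8, 15.98 and 15.5 FPKM in control cells and 10.02, 9.14 and 10.2 FPKM after *Xbp1* silencing, with a log2 fold change of −0.68 (95% interval −0.84 to −0.53, adjusted p = 1.65e-04, limma). The ratio of *Irf1* to *Irf2* was 1.05 ± 0.102 (SD, n = 3) with control siRNA and 1.57 ± 0.060 (SD, n = 3) with *Xbp1* siRNA. The 2 genes were thus about equal in control cells, and *Irf1* exceeded *Irf2* in every library with *Xbp1* siRNA (p = 0.10, exact two-sided permutation test, 0.167 after adjustment over 5 ratios). *Irf5* and *Irf8*, which are typical of immune cells, had 3 reads or fewer in each library, and *Irf4* was listed at 0 in all 6.

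Few reads came from the ligands on the list, which held no interferon-alpha gene. Of 6 interferon symbols listed, *Ifnb1*, *Ifne* and *Ifnk* were listed at 0 in all 6 libraries, *Ifng* had 2 reads over the control libraries and 3 reads over the *Xbp1* siRNA libraries, and *Ifnl2* and *Ifnl3* matched no row. None passed the filter on low values, so no change of interferon mRNA was tested. Reads are counts without molecular identifiers, and these numbers cover counting error only.

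Among negative regulators of JAK-STAT signalling, 15 of 17 symbols were tested, of which 5 fell and 2 rose, with a median log2 fold change of −0.18. *Socs7*, of the suppressor of cytokine signalling family, was the 1 gene called, with 10.2, 11.4 and 10.5 FPKM against 4.90, 4.81 and 4.91 FPKM. It fell by 1.12 on the log2 scale (limma, adjusted p = 3.90e-05). The log2 fold change was under the fold threshold with equal column sums (−0.98) and with a pseudocount of 1 (−0.993). *Socs5*, *Socs6* and *Socs3* also fell, with log2 fold changes of −0.51, −0.48 and −0.39. *Socs3* is the main feedback inhibitor of interleukin 6 signalling. *Socs1*, the inhibitor most closely tied to interferon signalling, lay between 9.08 and 11.7 FPKM with control siRNA and between 8.37 and 9.82 FPKM with *Xbp1* siRNA, and did not pass the test. *Usp18*, which blocks signalling at IFNAR2 and is strongly induced by interferon, was listed at 0 in all libraries.

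The list of kinases and cofactors that act on IRF3 and IRF7 held 12 symbols, of which 9 were tested, 4 rose and 1 fell. *Irak1*, a kinase that acts on IRF7 downstream of Toll-like receptors, rose from 25.8 ± 0.438 to 40.2 ± 1.67 FPKM (mean ± SD, n = 3 each), with a log2 fold change of 0.63 (limma, adjusted p = 4.73e-05). *Traf3*, an adaptor of the kinases that phosphorylate IRF3, rose by 0.38 and *Tank*, which binds TRAF3, by 0.37 on the log2 scale. *Ep300*, a coactivator recruited by IRF3, fell, with a log2 fold change of −0.34. *Tbk1*, the principal IRF3 kinase, matched no row by name, and *Ikbke*, its relative, lay between 2.44 and 3.28 FPKM with control siRNA and between 2.94 and 3.80 FPKM with *Xbp1* siRNA.

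**Figure D3:**
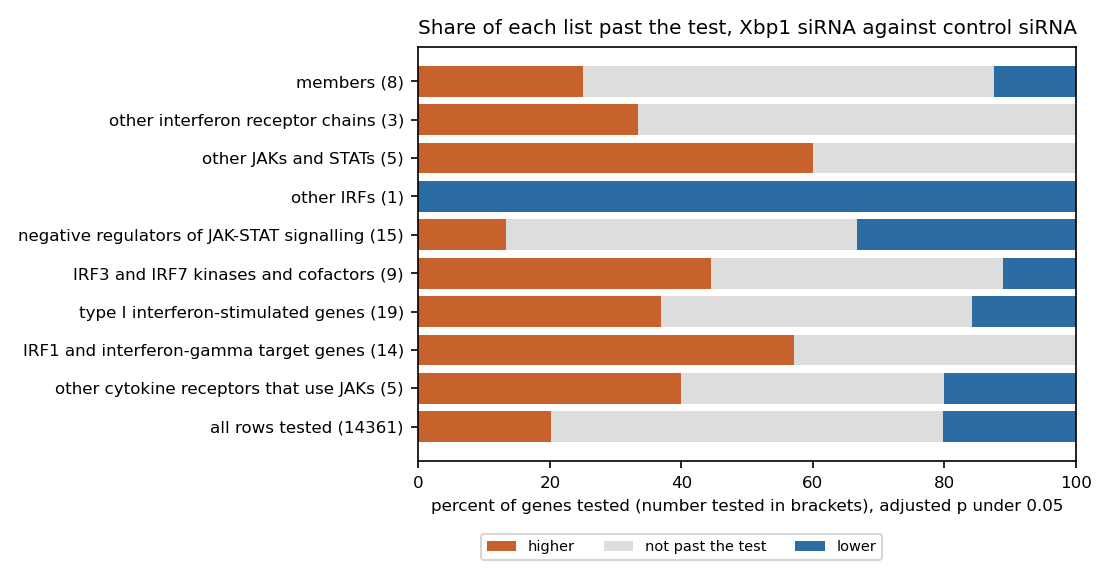
Percent of the genes tested in each list that rose (orange), fell (blue) or did not pass the test (grey) at an adjusted p under 0.05, with the number tested in brackets; the bar of members is the 8 genes described here. In the list of IRF1 and interferon-gamma targets 8 of 14 genes rose and 0 fell, whereas over all rows tested 20.2% rose and 20.2% fell. The lists were chosen with earlier results of these data known, so this comparison is a description only.

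Targets of these factors were looked at in 2 lists. Of 39 type I interferon-stimulated genes, 19 were tested, 7 rose and 3 fell, with a median log2 fold change of 0.32. The count of 3 was 1 without control replicate 2, control replicate 3, *Xbp1* siRNA replicate 1 or *Xbp1* siRNA replicate 2. It was 2 with a pseudocount of 1, without a filter, without the intensity trend, with equal column sums and without *Xbp1* siRNA replicate 3. *Eif2ak2*, the kinase activated by double-stranded RNA, was called with a log2 fold change of 1.07 (limma, adjusted p = 0.0252). The call was lost on the p without *Xbp1* siRNA replicate 2 (adjusted p = 0.0701), without the intensity trend (0.0532) and with the replicate block (0.0520), on the fold without control replicate 3 (log2 fold change 0.74), after quantile normalization (0.96) and with a pseudocount of 1 (0.70), and on both without *Xbp1* siRNA replicate 3 (0.95, adjusted p = 0.0852, limma). *Uba7*, the activating enzyme of ISG15, rose by 0.98 and *Oasl*, a relative of the 2-5A synthetases, by 0.81, while *Ifi35* fell, with a log2 fold change of −0.74. The fall of *Ifi35* passed with all libraries (adjusted p = 0.0181) and not without control replicate 2 (0.0574), control replicate 3 (0.0511), *Xbp1* siRNA replicate 1 (0.0559) or *Xbp1* siRNA replicate 2 (0.0573). *Isg15*, the ubiquitin-like protein that UBA7 activates, was named after its values were seen and had 2.87, 4.46 and 5.40 FPKM with control siRNA and 2.58, 2.47 and 2.66 FPKM with *Xbp1* siRNA, from 56 and 37 reads. It fell, with a log2 fold change of −0.66 (limma, adjusted p = 0.0477), and passed without control replicate 1 (0.00330) but not without any other library (0.0967 to 0.129) or with equal column sums (0.0978). Nor did *Isg15* pass with a pseudocount of 1, without a filter or without the intensity trend. Several genes that interferon strongly induces in many cells were listed at 0 in every library (*Zbp1*, *Cmpk2*, *Rsad2*, *Ifi44l*, *Oas2* and *Oas3*), and *Ifit2* had 1 read over the 6 libraries. Of the 29 matched genes of this list 7 were at 0 throughout, as were 10274 of all 27873 rows.

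Of 21 IRF1 and interferon-gamma targets, 14 were tested, 8 rose, 2 of them called, and 0 fell, with a median log2 fold change of 0.42. Without control replicate 2, 1 fell. At an unadjusted p under 0.05, 1 had a negative log2 fold change, namely *Psmb8*, a subunit of the immunoproteasome, with −0.19 (unadjusted p = 0.0319, limma). *Icam1*, an adhesion molecule that is also an NF-kB target, had the largest difference among those with a mean of at least 1 FPKM, at 3.35-fold. The other gene called was *Cxcl10*, a chemokine, which was named after its values were seen and whose mean was just under 1 FPKM. It had 1, 2 and 1 reads with control siRNA and 31, 12 and 15 reads with *Xbp1* siRNA, and a log2 fold change of 2.93 (limma, adjusted p = 9.94e-04), which was 1.24 with a pseudocount of 1. *Psmb10*, another immunoproteasome subunit, rose by 0.57, *Gch1*, the first enzyme of tetrahydrobiopterin synthesis, by 0.48 and *Tapbp*, which helps to load peptides on MHC class I, by 0.48 on the log2 scale. *Tapbp* was abundant, with 119, 116 and 121 FPKM against 169, 165 and 165 FPKM. *Ido1*, *Nos2* and *Cd274*, which interferon-gamma induces in many cells, were listed at 0 throughout.

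The 4 genes among the 8 with an unadjusted p under 0.05 differed in how firmly they stood. *Irf7* passed an adjusted p of 0.05 under each of the 15 alternatives. *Stat2* did not pass under 9 of them and *Irf3* under 9, while *Tyk2* passed under 2. No direction changed for these 4 genes under the alternatives run. Of the 4 genes not past the test at either level, *Irf9* kept its direction and passed with equal column sums, *Ifnar1* and *Irf1* turned with equal column sums, and *Jak1* turned under 4 alternatives.

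**Figure D4:**
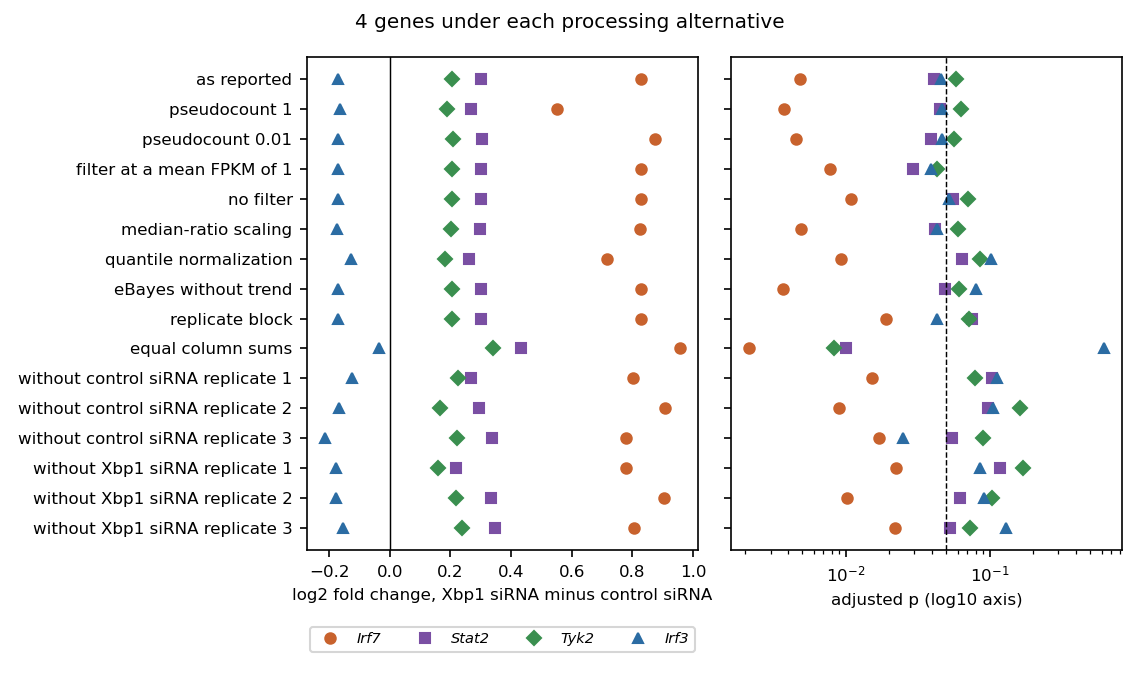
Log2 fold change (left) and adjusted p on a log axis (right, limma) of *Irf7*, *Stat2*, *Tyk2* and *Irf3* as reported and under each of the 15 alternatives; the dashed line marks an adjusted p of 0.05. *Irf7* stays left of the line, with adjusted p between 0.00213 and 0.0222, while *Stat2* and *Irf3* lie on either side of it.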

How the data were processed

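RNA was sequenced from stranded mRNA libraries of 6 samples on 1 platform. The authors deposited FPKM values, normalized for gene length and mapped fragments, 1 library per file; HISAT2 2.1.0 and Cuffdiff 2.2.1 are listed in the submitters' processing notes, and the genome build and annotation are not given in the sources used here. Genes are therefore given by symbol; a RefSeq table of assembly CriGri-PICRH-1.0 was used for names and neighbours only and held 88.0% of 27311 symbols.

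FPKM values are not counts, so the DESeq2 test of the study's methods was not applied. Log2(FPKM + 0.1) values were fitted by limma 3.58.1 under R 4.3.3 (lmFit, eBayes with trend), for rows with a mean of at least 0.1 FPKM, and the fit was tested on simulated data. Groups follow the sample titles. Reads were recovered where values in all 6 libraries were whole multiples of a common step within 0.005 reads, up to 600 reads, limits set after seeing the data, which held for 34.5% of rows tested. One alternative, equal column sums, was added after seeing the data. Ratios were compared by exact permutation. Python 3.11.15 was used for these steps.

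The members and the 9 gene lists were chosen with earlier results of these data known. Named genes are the members, *Xbp1*, up to 4 genes per list with the largest change among those past the test with a mean of at least 1 FPKM, genes listed at 0, and the 5 genes most like *Irf7*; any other gene was named after its values were seen. A planned promoter motif search was not run, and some genes of the lists, though counted, are not reported here.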

Additional observations from a re-analysis of the deposited data

How the results depend on the processing

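Of 15 alternatives, rescaling the columns to equal sums, chosen after seeing the data, moved the counts past the adjusted p alone the most. With that rescaling 5 of the 8 genes were higher and 0 lower. Over all rows tested, 4551 genes passed the adjusted p alone higher and 1870 lower, against 2898 and 2904. *Ifnar1* was then 0.0576, *Jak1* 0.122 (past the test), *Irf1* 0.0262, *Irf3* −0.0352 (no longer past it), and *Tyk2* 0.339 and *Irf9* 0.240 (both past it) on the log2 scale. This shift follows from the lower column sums with *Xbp1* siRNA. Among the others, quantile normalization, no filter and the replicate block each left 1 of the 8 genes higher in place of 2, as did leaving out each library (1 to 1). The count of lower genes, 1 as reported, was 0 after quantile normalization, without a filter and without the intensity trend, and 0 to 1 when a library was left out. *Stat2* had log2 fold changes of 0.26 after quantile normalization, 0.30 without a filter and 0.30 with the replicate block (limma, adjusted p = 0.0759), none past the test, and 0.22 to 0.35 when a library was left out. *Irf3* had −0.13 after quantile normalization, −0.17 without a filter and −0.17 without trend, none past the test, and −0.21 to −0.13 when a library was left out. *Tyk2* passed with 0.21 at a filter of 1 FPKM. *Jak1* had a log2 fold change of 0.0550 after quantile normalization and −0.0283 to 0.0114 when a library was left out. A pseudocount of 1 called 114 genes higher and 205 lower in the whole table, against 386 and 359, and a filter of 1 FPKM called 242 higher. Replicate numbers did not pair the libraries: deviations from the group mean in libraries of the same number had correlations of −0.029, −0.027 and −0.012 across genes; the replicate block also took *Eif2ak2* to an adjusted p of 0.0520 (limma). The cause of these shifts was not tested, apart from the shrinkage by the pseudocount. The FPKM of 7 of the 8 genes could not be turned into reads, so their counting error is unknown.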

Other observations

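Other cytokine receptors that use Janus kinases were examined as a list of 14 symbols, of which 5 were tested, 2 rose and 1 fell. *Il6st*, which encodes the shared signal chain gp130 of the interleukin 6 family, fell from 43.0 ± 2.65 to 32.2 ± 1.16 FPKM (mean ± SD, n = 3 each), with a log2 fold change of −0.42 (limma, adjusted p = 9.47e-04). The 2 genes that rose encode receptors that pair with gp130, namely *Osmr*, the oncostatin M receptor, with 0.41 (limma, adjusted p = 0.0134), and *Il11ra*, the interleukin 11 receptor, with 0.38 (limma, adjusted p = 0.00758). *Il13ra1*, *Il10ra*, *Lepr* and *Prlr* were listed at 0 in all 6 libraries.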
